A study of Rattus norvegicus with 2 samples.

Results

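The genes described here are 9 markers of macrophages and microglia, Aif1, C1qa, C1qb, C1qc, Cd14, Fcer1g, Cd68, Spp1 and Gpnmb, of 10411 genes with a probe set of their own on the array. They were taken by name, and every probe set that the platform annotation assigns to exactly 1 of these symbols was used, which gave 10 probe sets of the 12783 with exactly 1 symbol. Aif1 had 2 probe sets and every other gene had 1. RNA of rat sympathetic neurons was hybridised to Affymetrix Rat Expression Set 230A arrays, 2 in all, with 1 for each culture condition. In the first condition (the neuron-only array) the neurons were grown without a target. In the other (the co-culture array) they were grown with myocytes and then lifted from the dish with EDTA. That wash is meant to take the loosely attached neurons and leave the flat cells. Fibroblast and smooth muscle genes still gave signal on both arrays, with Col1a1 at 9988 on the neuron-only array and 10750 on the co-culture array. The title and source name give the second sample as grown with its myocyte target, whereas its description field speaks of neurons alone, and the title was followed. The sources used here give no strain, age or number of cultures behind each RNA. The series asks which genes accompany the growth inhibition of these neurons by their target.

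With 1 array per condition no difference has a replicate check and none was tested, so each value compares these arrays and not the conditions. The values are deposited intensities, with a median over 15866 probe sets of 185.7 on the neuron-only array and 175.0 on the co-culture array. A log2 ratio is that of co-culture over alone after values under 39.6 were set to it, and a gene is above the filter if its brightest probe set reached the median of its array in at least 1 array. As a yardstick, probe sets of the same gene were compared with each other over 749 genes, and a single probe set's log2 ratio had an SD of 0.36 among the dimmest of 4 groups, 0.29 and 0.28 in the middle groups and 0.21 among the brightest. It measures the scatter between probe sets and not the spread between cultures. Probe sets differ in how well they bind, so signals of different genes are not set against each other.

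Macrophages are phagocytes of the innate immune system that live in most tissues, and microglia are their counterparts in the brain and spinal cord. Resident macrophages are also found in peripheral ganglia, among the cell bodies of sympathetic neurons. They sense microbes and dying cells through surface receptors, pass Fc and related receptor signals through small adaptors that carry ITAM motifs, make most of the C1q that starts the classical complement pathway, and digest what they take up in lysosomes. Several of the markers are not restricted to them: osteopontin (Spp1) is also made by bone, smooth muscle and fibroblast-like cells, Gpnmb by pigment cells, and Cd14 by some fibroblasts and epithelia.

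Between the arrays the 9 genes did not move together. Fcer1g had the largest difference and was 1.73-fold lower in neurons from co-culture. Aif1, Cd68 and C1qa had lower signals by 1.14-fold to 1.27-fold on their brightest probe sets, while Spp1, Gpnmb and Cd14 had higher signals by 1.13-fold to 1.21-fold, and C1qb and C1qc were level. Of the 8 genes above the filter, 4 were higher and 4 lower, against 47.3% of all 6368 genes above the filter that had a higher one. The median log2 ratio of the 8 was -0.08, beside -0.01 over all genes above the filter. Aif1 passed only through the neuron-only array and C1qc only through the co-culture array, and over the other 6 the median was -0.01, with 3 higher and 3 lower. None of these 6 had a ratio near that median. Fcer1g differed by 2.84 times the probe set SD at its signal, and the brightest probe sets of the other marker genes by at most 1.30 times. Apart from Fcer1g, a lower and a higher group are therefore not set apart by these values. With C1qb, which lay below the filter, the median of all 9 was 0.00.

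**Figure D1:**
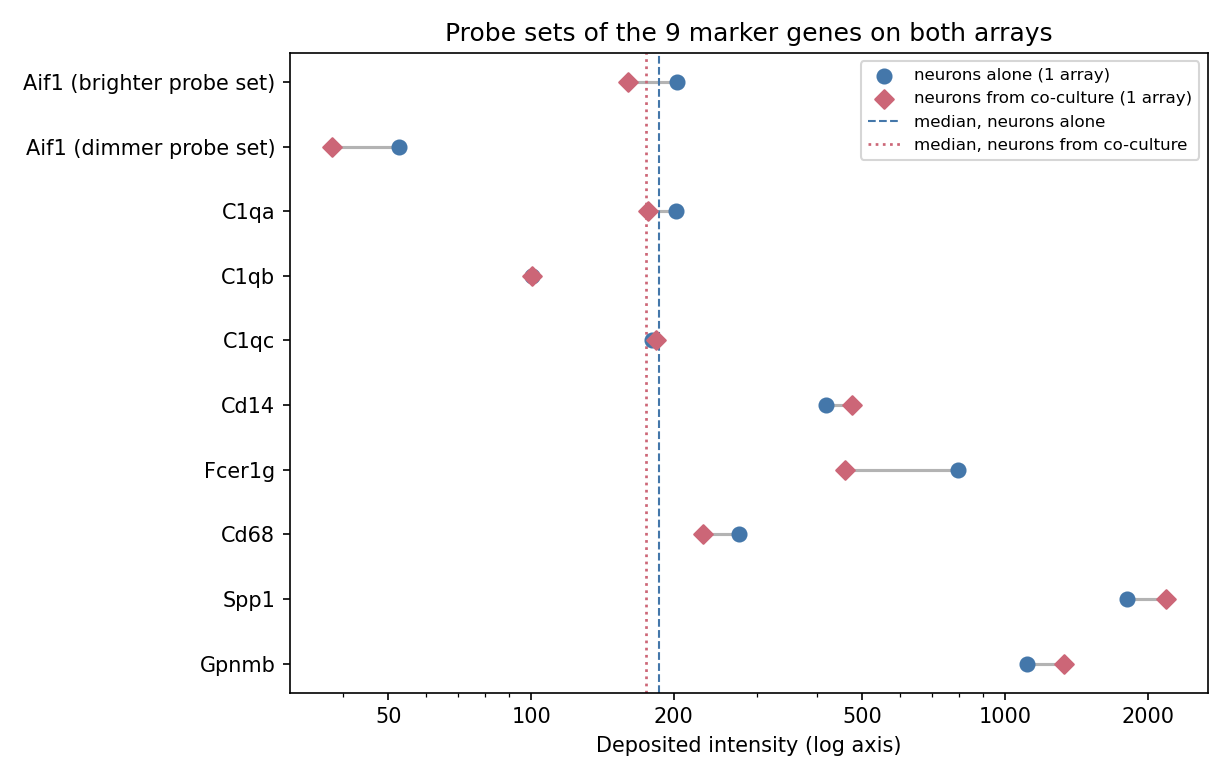
Deposited intensity (log axis) of the 10 probe sets of the 9 marker genes, with a circle for neurons alone, a diamond for neurons from co-culture and a line joining them; the dashed and dotted lines are the medians of the arrays. Fcer1g has the widest gap (796 and 460), the points of C1qb coincide, and Spp1, Gpnmb and Cd14 have their diamonds to the right.

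C1qa, C1qb and C1qc encode the A, B and C chains that assemble into C1q, the recognition part of the first complement component. In the RefSeq gene table the genes of the 3 chains follow each other on the same chromosome with no other gene between them. C1qa had a signal of 202 on the neuron-only array and 177 on the co-culture array, a log2 ratio of -0.19 and a difference smaller than the scatter of a probe set at this signal. C1qb had 100.4 and 100.5, below the median of both arrays, and a log2 ratio of 0.00. C1qc had 179.9 and 183.1, a log2 ratio of 0.03. The signals of all 3 chains lay near or below the median of their array, and none differed by as much as 1 SD of the yardstick. For C1qb, below the filter, that SD was taken from probe sets above it.

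Cd14 is the surface co-receptor that hands bacterial lipopolysaccharide to Tlr4. Its signal was 420 on the neuron-only array and 475 on the co-culture array, 1.13-fold higher, with a log2 ratio of 0.18 against a probe set SD of 0.29. The co-culture value passed the upper quartile of its array (464) and the value in neurons alone did not reach that of its own (479).

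Fcer1g encodes the common gamma chain, a small transmembrane adaptor with an ITAM motif that Fc receptors of macrophages, mast cells and natural killer cells need for surface expression and signalling. Its signal was 796 on the neuron-only array and 460 on the co-culture array, and the log2 ratio was -0.79. The first value lay above the upper quartile of its array and the second just under that of its own. The difference was 2.84 times the probe set SD at this signal (0.28). Fcer1g was the 1 gene of the 8 above the filter at least 1.5-fold lower, where 3.30% of all genes above the filter were at least that much lower, and no marker gene was at least 1.5-fold higher, where 1.93% of all genes were. No marker gene reached 2-fold, as 0.942% of all genes did in either direction. A lower ratio than that of Fcer1g was found for 1.35% of the genes above the filter, and for 0.754% of those of like signal (the same of 4 equal groups by mean signal). Fcer1g has a single probe set on this array, so no other probe set of the gene could be set beside it.

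Aif1 encodes Iba1, an actin-bundling, calcium-binding protein of membrane ruffles whose antibody stain is the usual mark of microglia. Its brighter probe set had 203 on the neuron-only array and 160 on the co-culture array, a log2 ratio of -0.34. Its dimmer probe set, which Affymetrix marks as shared between transcripts, had 52.6 and 37.9, a log2 ratio of -0.41 after the floor. Both probe sets were lower in neurons from co-culture, and both differences were about as large as the probe set SD of 0.36. That SD was taken from probe sets above the filter, where the dimmer one does not lie. The dimmer one lay below the median of both arrays and dropped under the floor in co-culture.

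**Figure D2:**
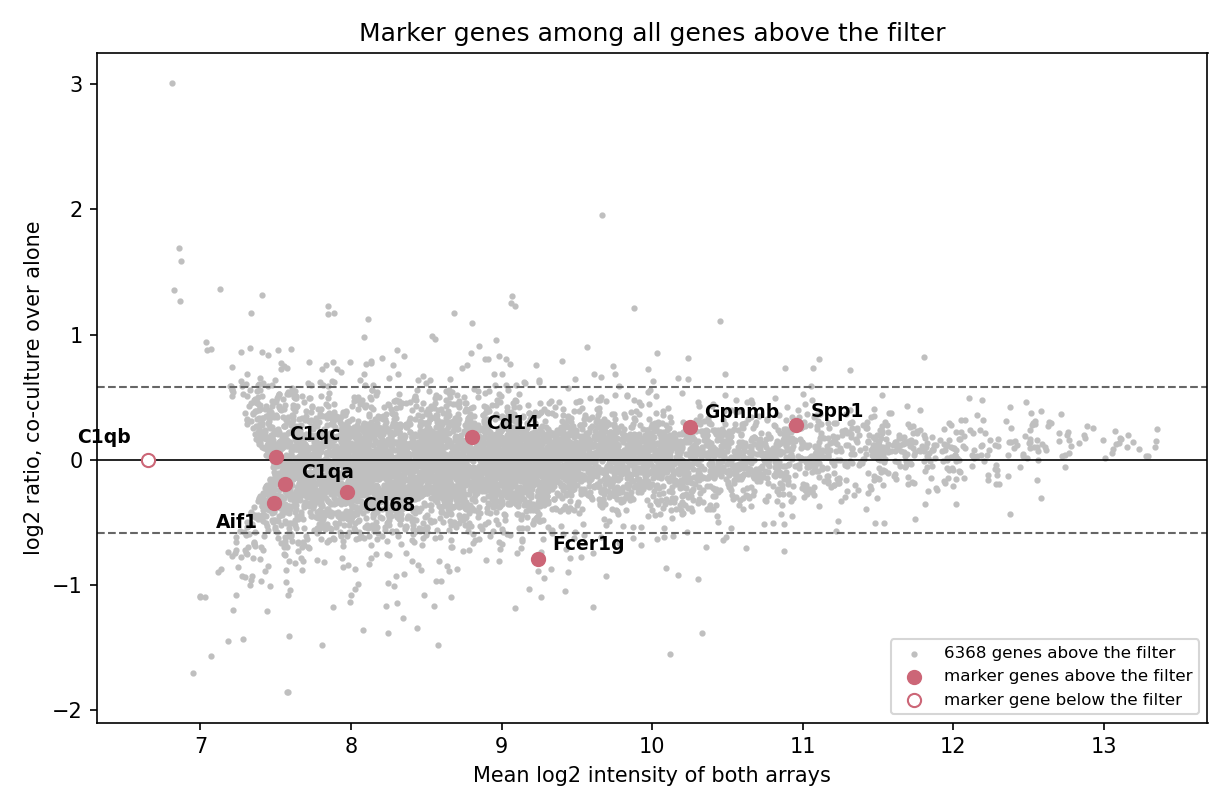
log2 ratio of co-culture over alone (vertical) against the mean log2 intensity of both arrays (horizontal) for the 6368 genes above the filter (grey) and the 9 marker genes on their brightest probe sets; dashed lines mark 1.5-fold. Fcer1g is the marker gene outside the dashed lines (-0.79), and the open circle is C1qb, below the filter.

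Cd68 and Gpnmb encode glycoproteins of lysosomes and late endosomes, and Spp1 encodes osteopontin, a secreted phosphoprotein that binds integrins and Cd44. Cd68, a heavily glycosylated relative of the Lamp proteins and the usual stain for phagocytes, had a signal of 275 on the neuron-only array and 230 on the co-culture array, 1.19-fold lower. Gpnmb, which lysosomal stress induces in macrophages, had 1109 and 1332, 1.20-fold higher. Spp1, a matrix protein and cytokine, had 1804 and 2182, 1.21-fold higher. Cd68 was lower with a log2 ratio of -0.26, within the probe set SD of 0.36, while Gpnmb (0.26) and Spp1 (0.27) were higher by 1.25 and 1.30 times their SD of 0.21. Gpnmb and Spp1 were the marker genes above the upper quartile of both arrays. The probe set of Spp1 is one that Affymetrix marks as covering alternative transcripts.

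The sequences before the start sites of Spp1, Gpnmb and Cd68, genes of matrix and lysosome, are shown as a description. Spp1 and Gpnmb were higher in neurons from co-culture by 1.30 and 1.25 probe set SDs. Cd68 was lower by 0.71, so a contrast between them is not established. RefSeq's promoter table (GRCr8) held 6 of the 9 genes, and Aif1, C1qc and Fcer1g were not among them. The 250 bases just before the annotated start were searched on both strands for GAGGAA, the core bound by PU.1, the factor that specifies macrophages, for TGAGTCA, the AP-1 site, and for TCATGTG, the M-box of the Mitf and Tfe factors that drive lysosomal genes. These motifs were chosen with the windows already in view. Capitals mark the matches on either strand, and no matches in these 3 windows overlapped. The window of Spp1 is chr14:5619805-5620054 (minus strand), and the gene model reaches 891 bases further upstream than the start used. The window of Gpnmb is chr4:79340878-79341127 (plus strand), and that of Cd68 is chr10:54882442-54882691 (minus strand).
Spp1: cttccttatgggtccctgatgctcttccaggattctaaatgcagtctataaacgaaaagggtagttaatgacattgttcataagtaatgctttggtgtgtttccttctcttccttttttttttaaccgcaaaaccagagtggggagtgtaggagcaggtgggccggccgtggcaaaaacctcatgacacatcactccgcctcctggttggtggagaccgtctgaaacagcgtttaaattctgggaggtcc
Gpnmb: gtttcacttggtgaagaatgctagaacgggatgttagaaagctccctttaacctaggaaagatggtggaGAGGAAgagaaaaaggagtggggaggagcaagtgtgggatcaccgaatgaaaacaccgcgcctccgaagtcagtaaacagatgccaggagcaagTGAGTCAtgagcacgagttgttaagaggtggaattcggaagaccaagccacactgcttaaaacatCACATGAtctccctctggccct
Cd68: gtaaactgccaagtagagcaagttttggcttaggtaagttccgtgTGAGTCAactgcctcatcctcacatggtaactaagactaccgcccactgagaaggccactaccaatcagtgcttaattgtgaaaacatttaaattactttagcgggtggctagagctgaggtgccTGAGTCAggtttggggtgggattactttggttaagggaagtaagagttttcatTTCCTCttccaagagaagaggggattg

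Gpnmb held 1 match to each motif, Cd68 held 2 AP-1 matches and 1 GAGGAA, and Spp1 held none of the 3. Of the windows not printed, C1qb held 2 GAGGAA matches and 1 M-box, C1qa 1 M-box and Cd14 2 GAGGAA matches. The gene model of Cd14 reaches 251 bases further upstream than the start used, so its window lies within the gene model. Among 33469 promoter windows of this length in the table, 23.3% held GAGGAA, 4.05% the AP-1 letters and 3.07% the M-box. The M-box letters were in the windows of Gpnmb, C1qb and C1qa, whose log2 ratios were 0.26, 0.00 and -0.19. Whether a motif bears on these ratios was not tested. A match of letters is a description and shows no binding.

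The genes chosen here to define macrophages and leukocytes more strictly had low signals on both arrays. Of 7 such genes chosen by name, Adgre1 and Spi1 were not among the genes used here, and 1 of the other 5 was above the filter. That was Csf1r, the receptor for the growth factor on which macrophages depend, with 191 on the neuron-only array and 132 on the co-culture array, 1.45-fold lower. Itgam, the alpha chain of a complement receptor, had 94.1 and 46.7, 2.01-fold lower but below the median on both arrays. Tyrobp, the other ITAM adaptor of myeloid cells beside Fcer1g, had 122 and 113. Ptprc, the pan-leukocyte phosphatase CD45, had 45.4 and 31.1, the second value under the floor, and its other probe set was under the floor on both arrays (31.9 and 17.7). Cx3cr1, the fractalkine receptor of microglia, had 91.6 and 107. Of the 5 genes, 4 were lower in neurons from co-culture and Cx3cr1 was higher, and no deposited intensity was 0. Of all 10411 genes, 5917 were lower and 4494 higher. Dim signals ran lower on the co-culture array as a whole, with a lower quartile of 51.3 against 59.5 on the neuron-only array. No defining gene gave a signal far above the median of either array, whereas some genes of the wider list below did. Since probe sets differ in how well they bind, a low signal does not show that a transcript is scarce. The 9 marker genes are described by name and not as a cell type. In RNA from such mixed, lifted cells, fewer cells of a type, a smaller share of them lifted from the dish and less RNA per cell cannot be told apart.

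**Figure D3:**
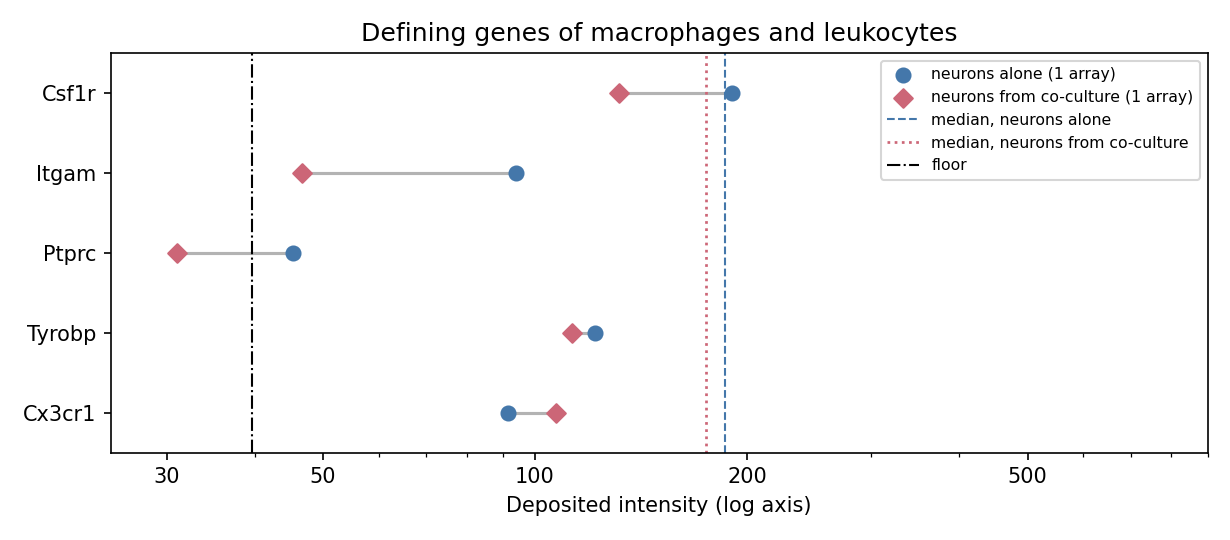
Deposited intensity (log axis) of the 5 defining macrophage and leukocyte genes used here, with a circle for neurons alone and a diamond for neurons from co-culture; the dashed and dotted lines are the array medians and the dash-dotted line is the floor of 39.6. Only the circle of Csf1r (191) lies to the right of its array's median.

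A wider list of 51 macrophage and myeloid genes had 35 on the array, of which 18 were above the filter, 11 higher and 7 lower. Its median log2 ratio was 0.09, which was 0.00 with no filter and -0.01 (9 higher and 9 lower) under scaling to the spiked controls, and none of the 18 reached 1.5-fold. The signals summed over the 35 genes were 10960 and 11646. Among them, Lgals3 (galectin-3) had 2743 and 3327 and the mitochondrial carrier Ucp2 had 1118 and 895, and both are also made outside the myeloid lineage. Of the 35 genes, 15 reached the median of both arrays and 17 reached it on neither. Of the 15, 10 were higher and 5 lower in neurons from co-culture, with a median log2 ratio of 0.11. Examples are Lyz2 (563 and 484), Mpeg1 (368 and 331), Coro1a (377 and 395) and Laptm5 (202 and 203). These examples are neither the brightest of the 15 nor typical of their direction.

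Genes of the pathways of the marker genes were read from lists taken by name. Of 34 other complement genes 24 were on the array and 9 above the filter, 6 higher and 3 lower with a median of 0.12, and none reached 1.5-fold. With no filter that median was -0.03. C1qbp, a mitochondrial protein named for binding C1q, had 2396 and 2603, and the chaperone clusterin (Clu) had 522 and 497. Of the list of Fc receptors and of adaptors and kinases of ITAM signalling, 2 of 16 on the array were above the filter. Fcgr3a, a low-affinity Fc receptor that pairs with the gamma chain, had 180 and 178, and the neonatal Fc receptor Fcgrt, an IgG transporter with no ITAM adaptor, had 424 and 365. Both were 1 higher and 1 lower after quantile normalization, median scaling, lowess or trimmed mean scaling. Over all 16, 13 were lower and 3 higher in neurons from co-culture, where 5917 of all 10411 genes were lower and 4494 higher. The comparison is unlike in signal, as 14 of the 16 lay below the filter and 4043 of all genes did.

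Of 33 genes around Cd14 and its lipopolysaccharide pathway, 21 were on the array and 10 above the filter, 5 higher and 5 lower, with a median of 0.02 that was -0.07 under scaling to the spiked controls. With the filter at the median in both arrays 3 were higher and 5 lower. Among them, the kinase Irak1 had 922 and 852 and the kinase Map3k7 had 706 and 733. Nos2, the inducible nitric oxide synthase of activated macrophages, was the member past 1.5-fold, with 115 and 192, 1.67-fold higher. Only the second value lay above the median of its array.

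Of 45 lysosomal genes, the setting of Cd68 and Gpnmb, 34 were above the filter, 24 higher and 10 lower, with a median of 0.07. Under scaling to the spiked controls 15 were higher and 19 lower, with a median of -0.02. The tetraspanin Cd63 had 4205 and 5233, 1.24-fold higher, and the protease Ctsl had 3342 and 3837. The genes past 1.5-fold went apart. Gaa, the lysosomal alpha-glucosidase, had 881 and 537, 1.64-fold lower, and Ctsc, the protease that activates granule enzymes of leukocytes, had 131 and 233 on its brightest probe set, which passed the filter only through the co-culture array. The other probe set of Ctsc, below the filter, ran the other way with 183 and 134. The ratio of Gpnmb (0.26) was above the median of this list and that of Cd68 (-0.26) below it.

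Of 16 osteopontin receptors and proteases that cleave it, 4 were above the filter, 2 higher and 2 lower, with a median of 0.02 that was -0.08 under scaling to the spiked controls. The integrin chain Itgb1 had 4120 and 3896, and the gelatinase Mmp2 had 2116 and 2290. Of 16 growth factors and chemokines that act on macrophages, 7 were above the filter, 5 higher and 2 lower, with a median of 0.20, or 0.09 with no filter. Ccl2, the chemokine that recruits monocytes, was the member past 1.5-fold, with 2695 and 4769, 1.77-fold higher, and the cytokine Mif had 2686 and 3087.

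**Figure D4:**
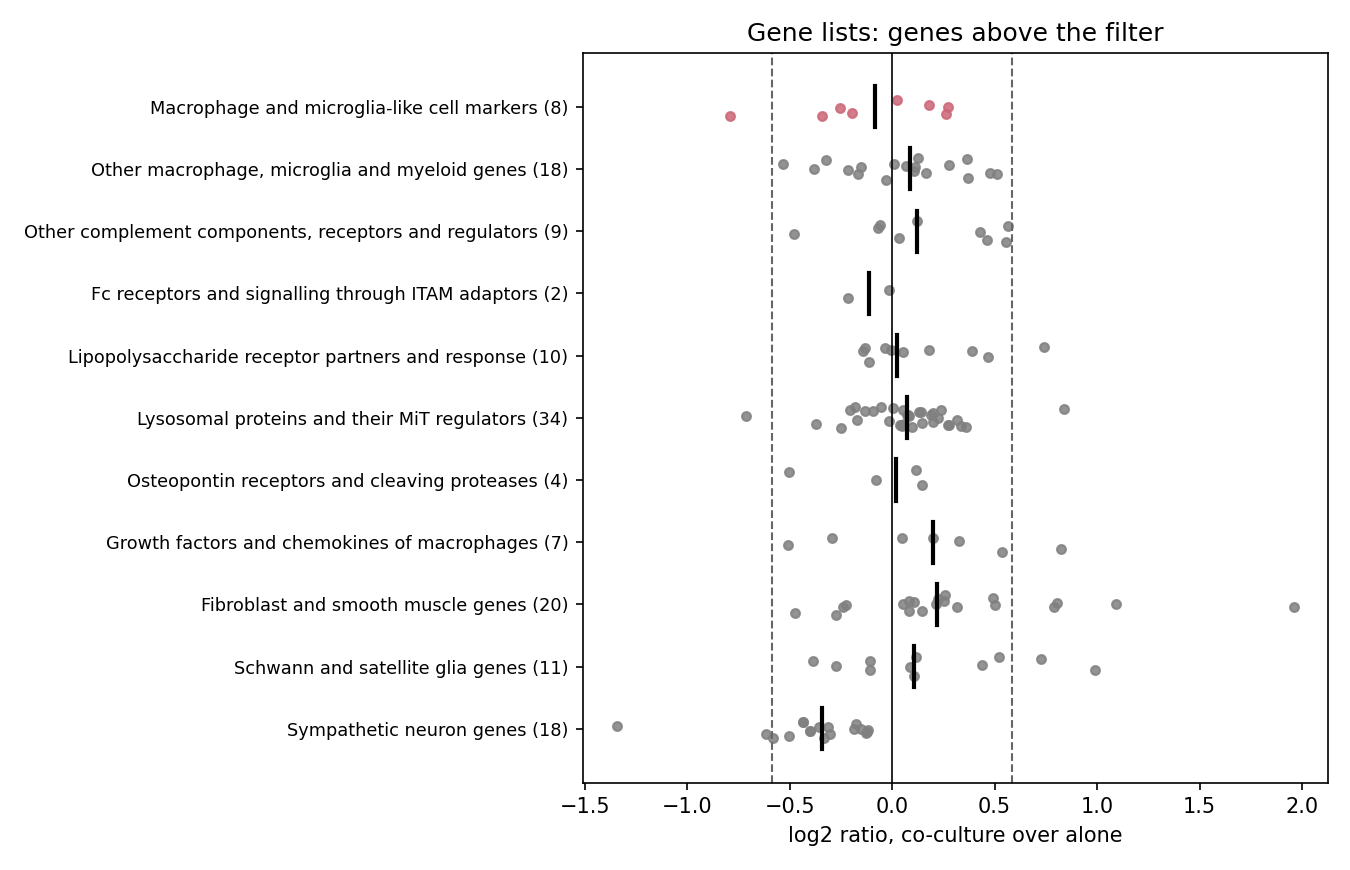
log2 ratios of co-culture over alone for the genes above the filter of the marker genes (red) and 10 other lists (grey), 1 point a gene, with the number of genes in brackets, a bar at the median of each list and dashed lines at 1.5-fold. The marker genes run from Fcer1g at -0.79 to Spp1 at 0.27, the neuron list lies below 0 and the fibroblast list mostly above it.

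Markers of other cells differed between the arrays too, and their part in the values of the marker genes was not tested. Of all 6368 genes above the filter, 47.3% were higher in neurons from co-culture. At least 1.5-fold lower were 3.3% of them, and at least 1.5-fold higher 1.93%. All 18 sympathetic neuron genes used here were lower in neurons from co-culture (median -0.34), with Npy at 6799 and 5507, the noradrenaline synthesis enzyme Th at 6175 and 4575, Snap25 1.53-fold and the noradrenaline transporter Slc6a2 2.54-fold lower. Their summed signal was 56032 on the neuron-only array and 45562 on the co-culture array. Of 20 fibroblast and smooth muscle genes, 16 were higher (median 0.22), or 13 after quantile normalization, lowess or scaling to the spiked controls, with summed signals of 61869 and 68009. They include Col1a1 (9988 and 10750), Mgp (3.89-fold higher), Dcn (2.13-fold) and Lum (1.75-fold). Of 11 Schwann and satellite glia genes above the filter, 7 were higher (median 0.11; with spiked-control scaling 6, median 0.01). With the filter set at the median in both arrays 4 of 8 were higher and the median was -0.01, as Gfap, Erbb3 and Egr2 passed only through the co-culture array, where they are higher. The glia list had summed signals over 16 genes of 10311 and 10532, with S100b 1.99-fold higher and Egr2 (174 and 288) 1.66-fold higher. Spp1 (0.27), Gpnmb (0.26) and Cd14 (0.18) were close to the median of the fibroblast list, and Aif1 (-0.34) was at that of the neuron list. Fcer1g (-0.79) was below the median of every list shown. The probe set SD was 0.21 for Spp1 and Gpnmb, 0.29 for Cd14 and 0.36 for Aif1. A ratio near a list median therefore shows no cell of origin, which was not tested.

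**Figure D5:**
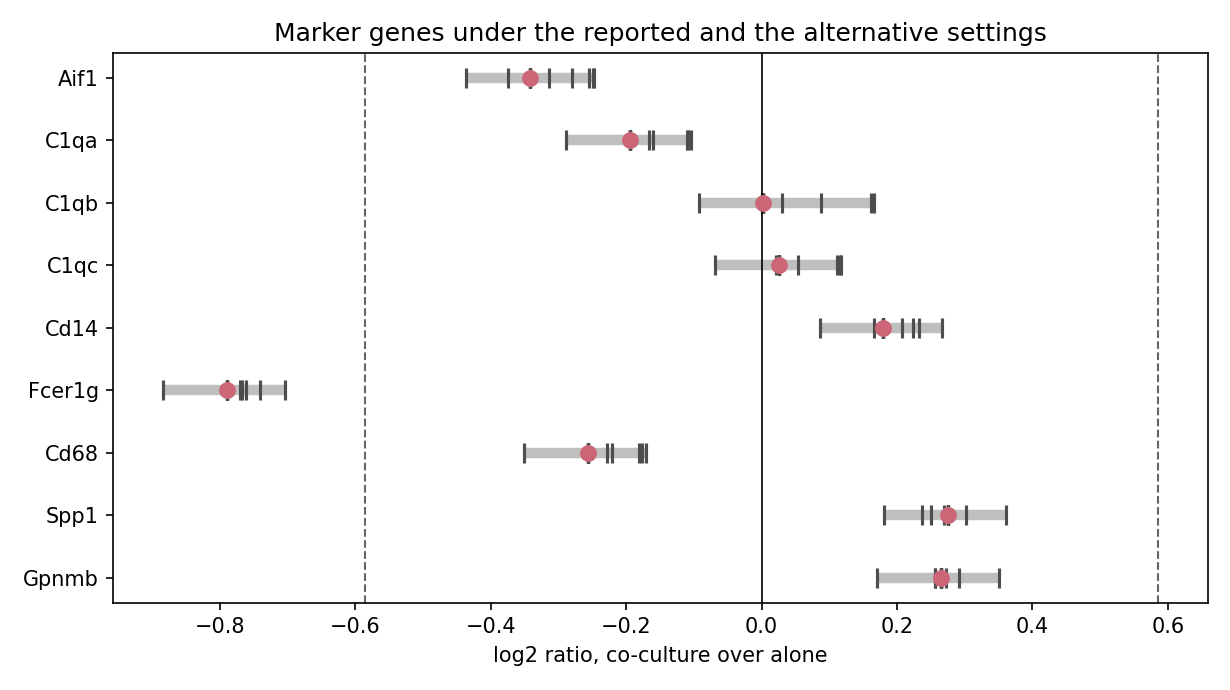
log2 ratio of co-culture over alone for each of the 9 marker genes under the reported setting (red) and the alternative settings (ticks; the grey band spans them), with dashed lines at 1.5-fold. Fcer1g lies between -0.88 and -0.70, past 1.5-fold throughout, and only C1qb and C1qc have ticks on both sides of 0.

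The direction of 7 of the 9 marker genes was the same under all the settings tried. Filters do not alter a gene's own ratio, so many of these settings could not change a direction. Fcer1g ranged from -0.88 to -0.70 and stayed past 1.5-fold in all 13 alternatives. With 1 probe set well above the floor, it could move only with the scaling or with a constant added in place of the floor. Under the other settings it stayed at -0.79. Aif1 ranged from -0.44 to -0.25, Cd68 from -0.35 to -0.17 and C1qa from -0.29 to -0.10. On the higher side, Spp1 ranged from 0.18 to 0.36 over the 12 alternatives that keep its probe set, Gpnmb from 0.17 to 0.35 and Cd14 from 0.09 to 0.27. C1qb (-0.09 to 0.17) and C1qc (-0.07 to 0.12) changed sign, both below 0 under scaling to the spiked controls, so they have no settled direction.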

How the data were processed

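The deposited table gives, per probe set, an intensity on a linear scale for each array. The arrays were quantified with dChip 1.3 per the series' design text, and MAS5 was used per the submitters' processing notes. The sources used here do not say which of them gave the deposited intensity, or how it was scaled and corrected for background, so dim values can carry cross-hybridisation that cannot be subtracted. No detection calls were used. Only 1 array per condition limits the precision.

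Of 15923 probe sets, 57 controls were left out, 312 had several symbols and 2771 had none. Current symbols were taken by gene identifier from the RefSeq table of GRCr8, which matched 12754 of 12789 annotated probe sets with 1 symbol, controls included. Intensities were used without further normalization, floored at the pooled 20th percentile (39.6) and put on a log2 scale. Each gene was read from its brightest probe set. Of 10411 genes, 6368 were above the filter (the array median in at least 1 array). No test was run. Differences of at least 1.5-fold and 2-fold were counted as a description, and the log-ratio code was checked on made-up arrays with known differences. Python 3.11.15, numpy 2.4.6, pandas 2.3.3, scipy 1.17.1 and statsmodels 0.14.6 were used.

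The 9 marker genes and 15 other gene lists were chosen with earlier results of these data known. The 9 and the defining genes Csf1r, Itgam, Ptprc, Tyrobp, Adgre1, Cx3cr1 and Spi1 were named whatever their values. From each other list, genes were named among the 2 brightest above the filter and up to 3 with the largest difference past 1.5-fold. Lyz2, Mpeg1, Coro1a and Laptm5 were named outside this rule, as were Gfap, Erbb3 and Nppa. The settings varied were the normalization, the floor, the choice of probe set and the filter, 12 in all, and scaling to 18 spiked-control probe sets was added after seeing the data.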

Additional observations from a re-analysis of the deposited data

How the results depend on the processing

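The count of marker genes past 2-fold was 0 under every setting, and that of marker genes with a higher signal was 3 to 5, beside 4 in the report. The median log2 ratio of the marker genes was -0.08 and ranged from -0.19 to 0.01: it was -0.19 without the probe sets that Affymetrix marks as shared or alternative, which removes Spp1, -0.18 under scaling to the spiked controls, and above 0 in 5 of 13 alternatives, among them quantile normalization (0.00) and lowess (0.01). Its sign is therefore not settled. Of the other lists with 3 or more genes above the filter, the myeloid growth factor and chemokine, fibroblast and neuron lists kept the sign of their median in all 13 alternatives. The list medians that moved by more than their yardstick did so under scaling (median or spiked controls), with other filters or with the mean over probe sets. No paired analysis was possible because each condition has 1 array. Without replicates nothing can be said of the spread between cultures. C1qa, C1qb, C1qc and both Aif1 probe sets are near or below the array median, where background weighs most.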

Other observations

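Genes of other leukocytes were dim on both arrays. None of 13 neutrophil and mast cell genes on the array was above the filter, and the highest signal among them was 102 on the neuron-only array and 129 on the co-culture array. Of 11 T and B cell genes on the array, 1 was above the filter, the kinase Lck, with 266 and 243. Of 10 class II and dendritic cell genes, RT1-DMb (247 and 254) and Cd83 (213 and 214) were above the filter, and the other 8 were not. Of 12 endothelial genes, 3 were above the filter, with Eng at 672 and 774 and Egfl7 at 211 and 191. Of 16 heart muscle genes, 5 were above the filter, 3 higher and 2 lower (4 and 1 after quantile normalization, median scaling, lowess or trimmed mean scaling). With the filter at the median in both arrays 1 was higher and 2 lower, with a median of -0.02, as Nppa and Nppb passed only through the co-culture array, where they are higher. In this list Tnnt2 had 293 and 408 and Pln 284 and 279, and Nppb, the B-type natriuretic peptide gene, was 1.72-fold higher (180 and 309). The other probe set of Tnnt2, below the filter, ran the other way with 63.3 and 47.2.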
